A study of Homo sapiens with 6 samples.

Results

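The genes followed across the libraries were CHL1, L1CAM, NFASC and NRCAM, which make up the L1 family of cell adhesion molecules, and BASP1, GAP43, MARCKS and MARCKSL1, which encode growth-associated proteins of the inner cell membrane. The rows of the deposited count table were matched to these 8 symbols by Ensembl ID. All 8 were found among its 60107 gene IDs, and all 8 were among the 22613 genes kept by the filter on low counts. CHL1 and BASP1 had been chosen by their read counts, which separated the groups in these same libraries, so their difference between groups is given below as a description with no test. The other 6 were added as their relatives, and their test comes from the fit over all genes. The cells were H9, an established human embryonic stem cell line, driven for 9 days toward nephron progenitor cells, which give rise to the filtering units of the kidney. One group was grown in complete medium, which contains glutamine, and the other was deprived of glutamine from day 0 through day 9, with 3 libraries each. Both groups went through the same differentiation protocol and were collected at the end of day 9. Nothing states that the replicates came from separate cultures, so p-values measure the spread between these libraries, which may be technical.

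L1 family proteins span the membrane, with immunoglobulin and fibronectin type III domains outside the cell and a short tail inside that binds ankyrins, which tie it to the spectrin skeleton. They are best known for guiding axons and holding neurons and glia together. BASP1, GAP43 and MARCKS relatives attach to the inner face of the membrane through lipid anchors, bind the phospholipid PIP2 and calmodulin, are controlled by protein kinase C, and are known for reshaping the actin skeleton of growing cells. BASP1 also enters the nucleus, where it acts as a cofactor that turns WT1, a transcription factor of the kidney and gonad, from an activator into a repressor.

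The promoters of the 4 members whose levels differed most are shown because the data bear on their transcripts, and because antisense genes span those of CHL1 and BASP1. The sequences are RefSeq's on GRCh38.p14, each the longest stretch of the 250 bases before a RefSeq start site that lies outside the gene's own GENCODE 29 exons. They run 5′ to 3′ on the gene's strand, with each CpG dinucleotide in capitals. The CHL1 stretch (chr3:196513-196595, plus strand) belongs to the most upstream of 3 RefSeq starts. Those of BASP1 (chr5:17216573-17216822, plus strand), NRCAM (chr7:108456437-108456669, minus strand) and MARCKSL1 (chr1:32336380-32336483, minus strand) follow.
CHL1: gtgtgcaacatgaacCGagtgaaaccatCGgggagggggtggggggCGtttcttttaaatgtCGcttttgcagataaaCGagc
BASP1: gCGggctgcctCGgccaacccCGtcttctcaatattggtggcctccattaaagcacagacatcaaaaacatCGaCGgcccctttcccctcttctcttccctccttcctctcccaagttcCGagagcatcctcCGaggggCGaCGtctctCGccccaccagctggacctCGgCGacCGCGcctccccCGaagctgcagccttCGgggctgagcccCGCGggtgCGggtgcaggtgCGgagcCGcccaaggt
NRCAM: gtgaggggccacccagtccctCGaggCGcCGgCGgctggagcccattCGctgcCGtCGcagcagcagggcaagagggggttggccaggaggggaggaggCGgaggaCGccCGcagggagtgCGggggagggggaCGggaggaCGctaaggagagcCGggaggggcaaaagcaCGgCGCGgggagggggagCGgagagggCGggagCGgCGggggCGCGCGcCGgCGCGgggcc
MARCKSL1: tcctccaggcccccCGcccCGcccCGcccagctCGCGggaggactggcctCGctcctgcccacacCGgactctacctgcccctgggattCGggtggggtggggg

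In the full 250-base windows before these starts, CHL1 held 14 CpG dinucleotides, BASP1 21, NRCAM 29 and MARCKSL1 28, against a median of 11 over 35116 RefSeq windows. The most upstream CHL1 window was 53.6% G or C, below the median of 58% over the same windows. Windows before the other RefSeq starts of CHL1 were 63.2% and 29.2% G or C, with 18 and 2 CpG. The printed windows of BASP1 (65.6%), MARCKSL1 (74%) and NRCAM (78.4%) were above that median. Those of BASP1 and NRCAM lie inside the genes as GENCODE 29 places them. For NRCAM, 17 bases of its exon come before the printed stretch. The sequence at that NRCAM start was not found in its GENCODE 29 transcripts. NRCAM also has 2 RefSeq starts further into the gene, whose windows were 42.4% and 33.2% G or C with 1 and 2 CpG, below both medians. The letters GCGTGGG, the core bound by WT1 and the related EGR factors, were searched on both strands. They occurred once in the most upstream CHL1 window, 21 bases before the start site. That part is exon in GENCODE 29 and is not printed. These letters occurred in none of the other CHL1 windows and in none of the listed windows of the other members. Over all windows 6.19% held them. The letters TGATGNAA, the core of the composite site of ATF4 and C/EBP factors, occurred in no member's window and in 3.14% of all windows. The whole BASP1 window lies inside an exon of BASP1-AS1, a gene transcribed from the opposite strand. CHL1-AS2, antisense to CHL1 (chromosome 3, 195758 to 197341), spans the whole of the most upstream CHL1 window, and its exon reaches into the part that is not printed.

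The libraries held 78220507 to 84746566 counts. Replicate 1 with glutamine stood apart: across genes, its log2 CPM had a Pearson's r of 0.9758 and 0.9762 with replicates 2 and 3 of its own group, and of 0.9908 to 0.9927 with the deprived libraries. Fold changes of the members, and the counts without overlap and medians of the gene lists, are therefore given with and without it. Markers of nephron progenitors and intermediate mesoderm were present, with WT1 at 225 to 376 CPM with glutamine and 341 to 390 without. NANOG, a pluripotency gene, had 0 or 1 count in each library. SOX10, which defines neural crest and its glia, had 0 counts in all 6, which allows up to 3 counts in a library. Some other genes of the same marker lists were present, so neither list was absent as a whole. LIN28A was at 125 to 322 CPM, DPPA4 at 113 to 269 and ERBB3 at 12.9 to 33.6 over the 6 libraries. CPM here means counts of a gene as a part of all counts in the library, on the usual CPM scale, after scaling of the libraries by TMM, a method that aligns the bulk of the genes. CPM compares 1 gene between libraries, not 1 gene with another.

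CHL1 (ENSG00000134121, chromosome 3, 196596 to 409417, plus strand, GENCODE 29 on GRCh38), a close homolog of L1 known from axon growth, was higher in the cells deprived of glutamine. Its level was 6.56, 6.34 and 6.63 CPM in replicates 1, 2 and 3 with glutamine. Without glutamine it was 12.7, 12.0 and 12.9 CPM. The groups did not overlap, and the gap between them was far wider than the spread inside either. The means were 6.51 ± 0.152 and 12.5 ± 0.505 CPM (SD, n = 3), a ratio of 1.92. The log2 fold change, without minus with glutamine, was 0.94 (SE 0.09). Behind these levels stood 495 to 532 counts in the libraries with glutamine and 937 to 1092 in those without. The antisense genes CHL1-AS1 and CHL1-AS2 overlap the locus and had at most 10 counts in a library. In bulk RNA, more cells of a type and more RNA per cell cannot be told apart, and this holds for every level below.

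**Figure D1:**
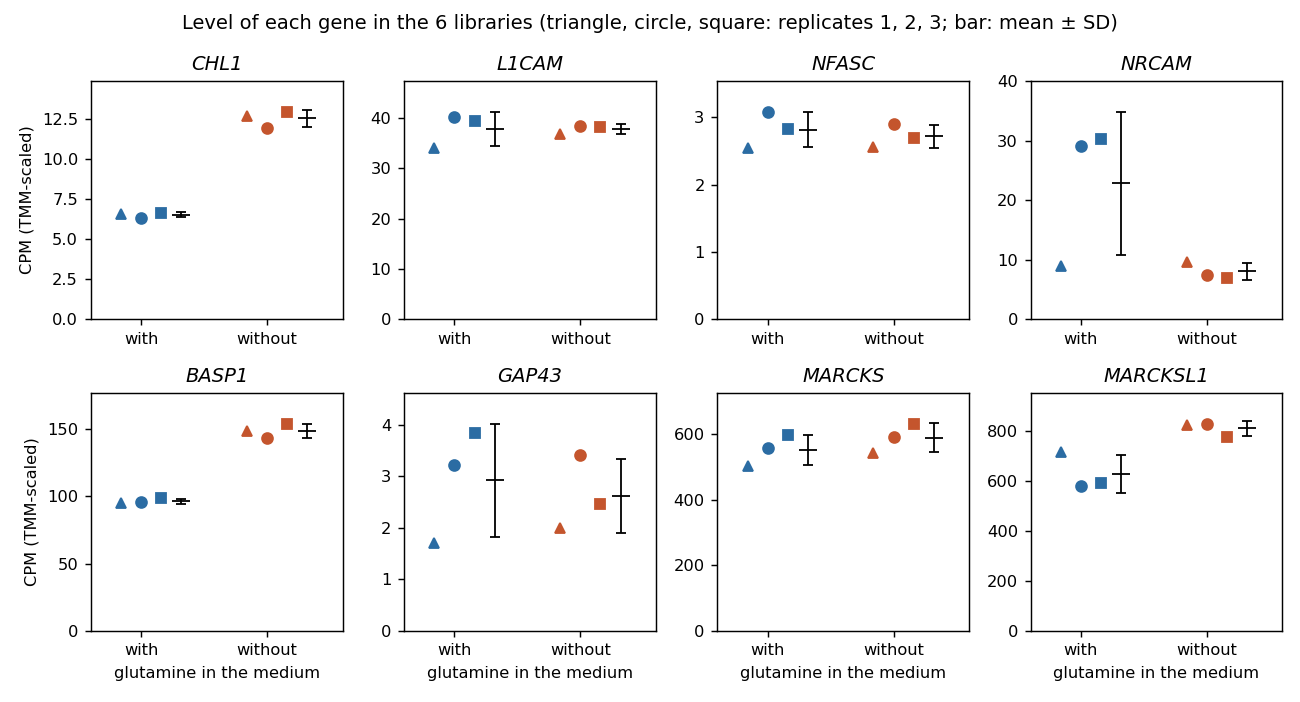
Each panel plots 1 gene's level in TMM-scaled CPM (y axis, from 0) in the 3 libraries with glutamine (blue) and the 3 without (orange), with triangle, circle and square for replicates 1, 2 and 3 and a bar for the mean ± SD. CHL1 and BASP1, picked because they separate the groups, form 2 tight groups. In NRCAM replicate 1 with glutamine, at 8.97 CPM, lies among the libraries without glutamine.

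The other members of the L1 family did not follow CHL1. NRCAM (ENSG00000091129, chromosome 7, 108147623 to 108456717, minus strand), the neuronal cell adhesion molecule, had a level of 8.97, 29.1 and 30.3 CPM in the libraries with glutamine (replicates 1, 2 and 3) and of 9.61, 7.49 and 6.99 CPM in those without. Replicates 2 and 3 with glutamine were high, and replicate 1 lay inside the range of the group without glutamine, so the groups overlapped. The log2 fold change was -1.50 (SE 0.43) and was not called by edgeR's quasi-likelihood test (Benjamini-Hochberg adjusted p 0.0874). Without replicate 1 with glutamine it was -1.88 (SE 0.12, adjusted p by edgeR 3.2e-06). DESeq2 on all 6 libraries also called it, at -1.50 and an adjusted p of 0.0407. Neuronal markers, named here after their values were seen, did not move together. The neurofilament gene NEFL was also high in replicates 2 and 3 alone, at 50.6, 266 and 279 CPM with glutamine and 54.5 to 61.2 without, as was NEFM at 67.1, 367 and 390 with and 72.0 to 91.8 without. MAP2, STMN2 and ELAVL4 were likewise highest in those 2 libraries. DCX, doublecortin of young neurons, had the opposite layout, at 63.4, 18.4 and 19.2 CPM with glutamine and 49.1 to 75.8 without. TUBB3, SYT1 and INA were higher in each library without glutamine than in each with it. The part of neuron-like cells in the NRCAM level was not tested.

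L1CAM (ENSG00000198910, chromosome X, 153861514 to 153886174, minus strand), the founding member of the family, was at 34.0, 40.2 and 39.3 CPM with glutamine and at 36.7, 38.4 and 38.2 CPM without. The libraries without glutamine fell inside the range of those with it. The means were 37.8 ± 3.33 and 37.8 ± 0.922 CPM (SD, n = 3), and the log2 fold change was -0.00042 (SE 0.09, adjusted p by edgeR 0.998). NFASC (ENSG00000163531, chromosome 1, 204828651 to 205022822, plus strand), neurofascin, which anchors the node of Ranvier and the axon initial segment, was scarce at 2.55, 3.07 and 2.83 CPM with glutamine and 2.56, 2.90 and 2.70 CPM without. The libraries without glutamine again fell inside the range of those with it, and its log2 fold change was -0.05 (SE 0.14, adjusted p by edgeR 0.827), or -0.12 (SE 0.13) without replicate 1 with glutamine. The signs of both genes changed under some alternatives, so no direction is given for either.

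The make-up of the L1 family therefore differed between libraries, as measured by each gene's share of the family's summed CPM per kilobase of merged exons. CHL1 held 8.58%, 5.48% and 5.70% of the sum in the libraries with glutamine (replicates 1, 2 and 3) and 14.4%, 13.7% and 14.9% without. L1CAM was the most abundant member in every library, at 55.1% to 72.6% with glutamine and 68.1% to 72.0% without. NRCAM held 36.4% and 37.8% in replicates 2 and 3 with glutamine. It held 17.0% in replicate 1 with glutamine and 11.6% to 15.8% without. NFASC stayed under the others, at 1.36% to 1.86% over the 6 libraries. The high share of L1CAM in replicate 1 with glutamine thus goes with low NRCAM, since its own CPM was the lowest of the 6 there.

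**Figure D2:**
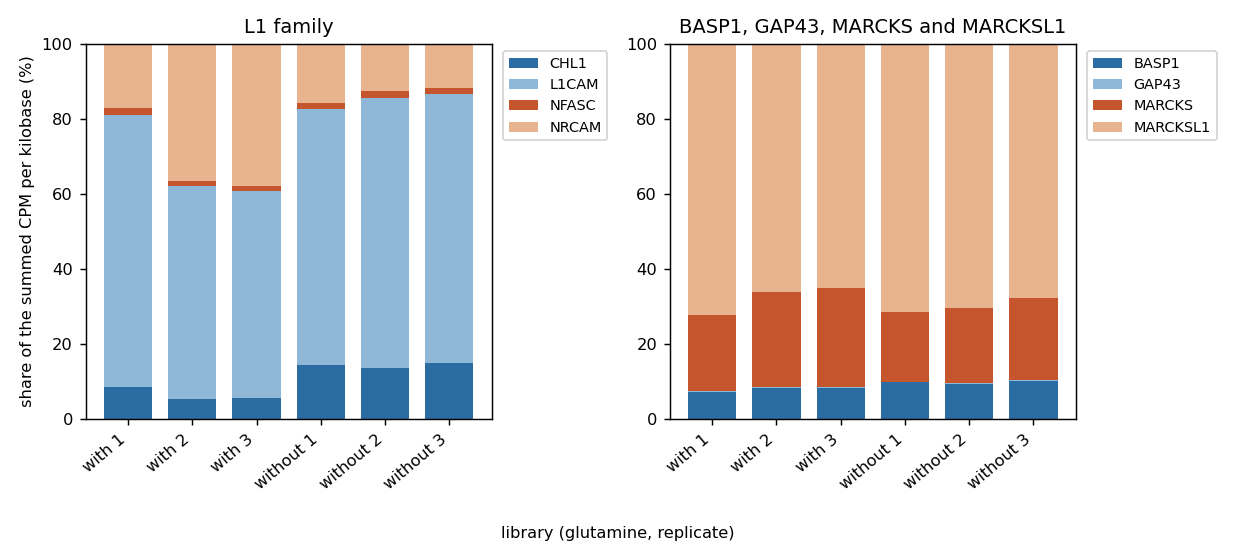
Stacked bars give each gene's share (%) of the summed CPM per kilobase of merged exons in each library, for the L1 family on the left and for BASP1, GAP43, MARCKS and MARCKSL1 on the right. The NRCAM segment is wide in replicates 2 and 3 with glutamine (36.4% and 37.8%) and the CHL1 segment is widest without glutamine (13.7% to 14.9%).

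Of the growth-associated genes, BASP1 was also higher without glutamine. BASP1 (ENSG00000176788, chromosome 5, 17065598 to 17276843, plus strand), the WT1 cofactor, was at 94.6, 95.6 and 98.4 CPM with glutamine and at 149, 144 and 154 CPM without. The groups did not overlap and each was tight. The means were 96.2 ± 1.96 and 149 ± 5.16 CPM (SD, n = 3), a ratio of 1.55, and the log2 fold change was 0.63 (SE 0.06). Its partner WT1 was at 376, 231 and 225 CPM with glutamine and at 390, 345 and 341 CPM without, so replicate 1 with glutamine lay inside the range of the other group. The log2 fold change of WT1 was 0.37 (SE 0.20, adjusted p by edgeR 0.247). The antisense gene BASP1-AS1, which covers the promoter printed above, had 27, 18 and 24 counts with glutamine and 49, 58 and 75 without. It was higher in each library without glutamine than in each library with it, as BASP1 was. The strand setting of the authors' counting is not given in the sources used here, so reads of the overlapping stretch cannot be assigned to 1 of the 2 genes.

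MARCKSL1 (ENSG00000175130, chromosome 1, 32333832 to 32336379, minus strand), the smaller relative of MARCKS, was at 716, 579 and 589 CPM with glutamine and at 824, 827 and 774 CPM without. The lowest library without glutamine was above the highest with it, and replicate 1 was the highest of its group. The log2 fold change of 0.36 (SE 0.10) was not called by edgeR (adjusted p 0.0812). It was 0.47 (SE 0.07, adjusted p by edgeR 0.000412) without replicate 1 with glutamine, and DESeq2 called it on all 6 libraries at 0.37 (adjusted p 0.0239). MARCKS (ENSG00000277443, chromosome 6, 113857362 to 113863471, plus strand), a main substrate of protein kinase C, was at 505, 557 and 597 CPM with glutamine and 544, 591 and 633 CPM without. Its groups overlapped, and its log2 fold change was 0.09 (SE 0.09, adjusted p by edgeR 0.516), or 0.03 (SE 0.08) without replicate 1 with glutamine. GAP43 (ENSG00000172020, chromosome 3, 115623324 to 115721490, plus strand), the growth cone protein of regenerating axons, was scarce at 1.70, 3.21 and 3.84 CPM with glutamine and 1.99, 3.41 and 2.47 CPM without. It varied by more within each group than between their means, with a log2 fold change of -0.16 (SE 0.33, adjusted p by edgeR 0.772) whose sign changed when replicate 3 with glutamine or replicate 1 without was left out. Without replicate 1 with glutamine it was -0.43 (SE 0.21, adjusted p by edgeR 0.124). Of the 6 members tested, none was called by edgeR with all libraries, where 0.00442% of all genes were called, 1 of 22613. Over the same genes 29.7% had an unadjusted p under 0.05, as had NRCAM (0.00949) and MARCKSL1 (0.0069) among the 6. DESeq2 called the same 2 genes, in a fit that called 14.4% of the 21306 genes given an adjusted p, and limma-voom called 0. The pseudogenes BASP1P1, MARCKSL1P1 and MARCKSL1P2, near copies that could take reads from their parents, had at most 7 counts in a library.

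**Figure D3:**
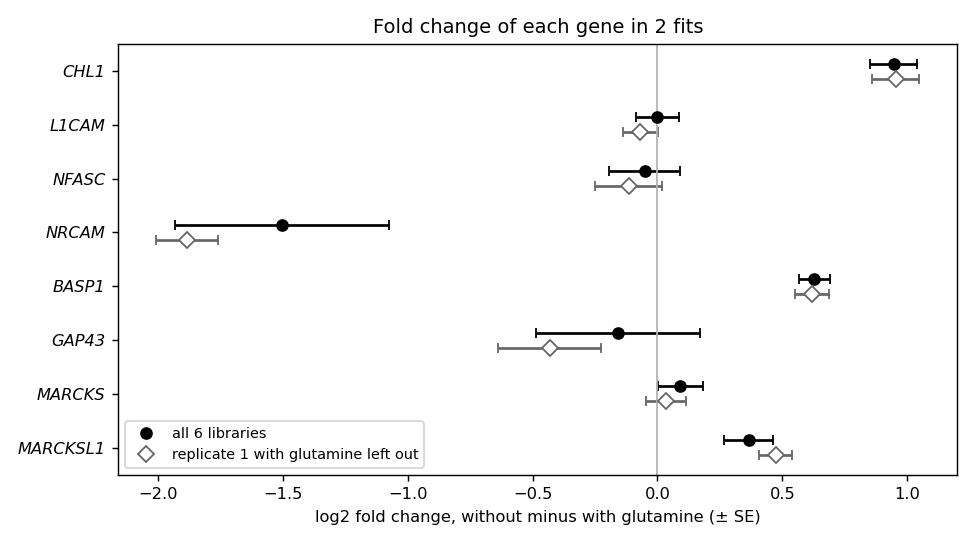
Points give the edgeR log2 fold change (x axis, without minus with glutamine) of each gene with its SE, filled for the fit on all 6 libraries and open for the fit without replicate 1 of the group with glutamine. CHL1 (0.94 and 0.95) and BASP1 (0.63 and 0.62) hardly move between the fits, which goes with their choice for separating these groups. NRCAM goes from -1.50 to -1.88 with a much shorter error bar.

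Of the 8 members, 3 (CHL1, BASP1 and MARCKSL1) had groups that did not overlap, all higher without glutamine. Over all genes tested 17.3% were higher without overlap and 34.2% did not overlap in either direction. Since CHL1 and BASP1 were picked for this separation, the share of members cannot be read against that background. With replicate 1 of the group with glutamine left out, L1CAM and NRCAM were also without overlap, both lower without glutamine, and 63.5% of all genes were. Among the 6 members tested in that fit, edgeR called NRCAM and MARCKSL1, where 41.3% of 23164 genes were called, 22.3% as higher and 19% as lower. L1CAM was not called there, at a log2 fold change of -0.07 (SE 0.07, adjusted p by edgeR 0.462).

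The place of replicate 1 with glutamine was measured against replicates 2 and 3 of its group. On the log2 CPM scale it was 0.02 above the mean of replicates 2 and 3 for CHL1 and 0.04 below it for BASP1 (-0.04). The mean of the libraries without glutamine was 0.95 above those replicates for CHL1 and 0.62 above for BASP1. Both genes were chosen because these groups separate in them, so that replicate 1 lay with its own group there goes with the choice and is no contrast with the other members. For NRCAM the difference of replicate 1 from replicates 2 and 3 was -1.73, close to the -1.90 of the libraries without glutamine. For MARCKSL1 the corresponding values were 0.29 and 0.47. In GAP43 the library differed from replicates 2 and 3 by -1.05, past the -0.46 of the other group. L1CAM (-0.22), NFASC (-0.21) and MARCKS (-0.19) were also lower in replicate 1 than in replicates 2 and 3, by less than GAP43.

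**Figure D4:**
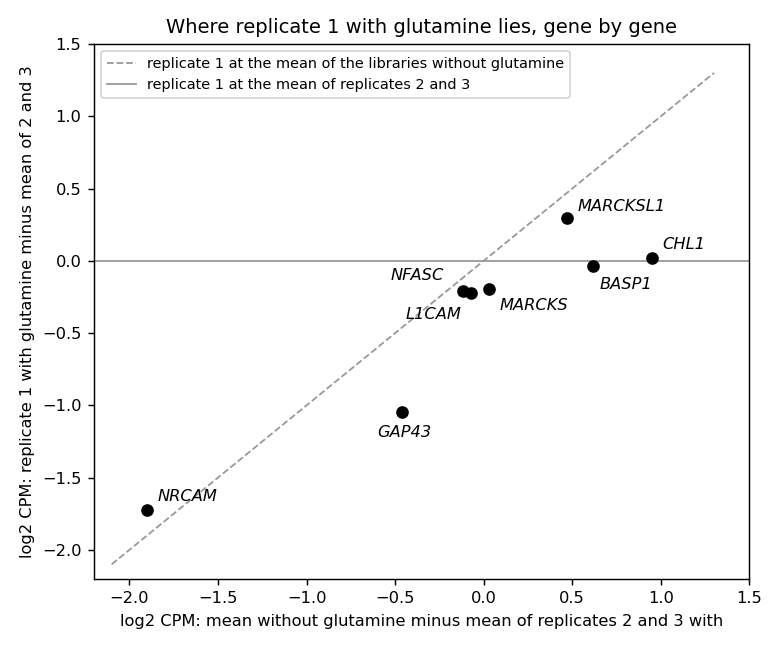
For each gene the x axis gives the mean log2 CPM without glutamine minus the mean of replicates 2 and 3 with glutamine, and the y axis gives replicate 1 with glutamine minus the same mean. CHL1 and BASP1, picked because they separate the groups, lie close to the horizontal line, where replicate 1 equals replicates 2 and 3. NRCAM lies near the dashed diagonal, where replicate 1 equals the libraries without glutamine.

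Levels of different genes were compared as CPM per kilobase of merged exons. The order with glutamine was MARCKSL1 (370 ± 44.9), MARCKS (129 ± 10.8), BASP1 (43.4 ± 0.884), L1CAM (5.20 ± 0.459), NRCAM (2.78 ± 1.46), GAP43 (1.40 ± 0.528), CHL1 (0.549 ± 0.0128) and NFASC (0.132 ± 0.0123; SD, n = 3). NRCAM and GAP43 overlapped in that order, with libraries at 1.10 to 3.70 and 0.815 to 1.84, and the other neighbours did not. Replicate 1 was the lowest of both, and in replicates 2 and 3 NRCAM (3.55 and 3.70) was above GAP43 (1.54 and 1.84). Without glutamine the first 4 kept their order, at 476 ± 17.7, 138 ± 10.4, 67.1 ± 2.33 and 5.20 ± 0.127 CPM per kilobase. GAP43 (1.26 ± 0.346), CHL1 (1.06 ± 0.0426) and NRCAM (0.980 ± 0.170) came next, and NFASC was last at 0.128 ± 0.00801. The libraries of GAP43, CHL1 and NRCAM overlapped without glutamine, so their order there is not resolved. Dividing by the longest transcript instead put CHL1 (1.56) above GAP43 (1.38) in that group. MARCKSL1 and MARCKS, which are widely expressed, thus led in both groups. By merged exons GAP43, CHL1 and NFASC, best known from neurons, were at or under 1.84 CPM per kilobase in every library. By the longest transcript GAP43 reached 2.02 in replicate 3 with glutamine.

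The genes whose level across the libraries was most like that of CHL1 and of BASP1 were looked up among 10067 protein-coding genes with a mean of at least 10 CPM, by Pearson's r of log2 CPM over 6 libraries. Those nearest to CHL1 were CCNQ (r = 0.995), TMPO (0.993), NAB1 (0.991), TMX1 (0.991) and CDC42SE2 (0.990). Those nearest to BASP1 were TMX1 (0.995), C19orf12 (0.993), UPF3B (0.993), NAB1 (0.992) and TMPO (0.991). The 6 points share their libraries and fall into 2 groups of 3, so r mostly records the gap between the groups. TMPO, which encodes proteins of the nuclear lamina, was at 355 to 373 CPM with glutamine and 474 to 484 without. TMX1, a thioredoxin-like protein of the endoplasmic reticulum, was at 103 to 105 CPM with and 117 to 119 without.

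The partners of the L1 family were described through a list of 28 genes: ankyrins and spectrins below the membrane, adaptor proteins, and ligands and co-receptors outside. None was called by edgeR with all libraries, while 14 had an unadjusted p under 0.05, where 29.7% of all genes had, and DESeq2 called 7, where it called 14.4% of all genes. In none of the lists below did edgeR with all libraries, or limma-voom, call a gene. Of the 28 genes tested, 11 did not overlap between groups, 6 of them higher and 5 lower in the deprived cells, or 39.3% against 34.2% of all genes, and the median log2 fold change was -0.08 against 0.0012 over all genes. PTPRZ1, a receptor phosphatase that binds L1-type molecules, was at 28.8, 54.6 and 61.7 CPM with glutamine and 20.8 to 23.7 without (log2 fold change -1.10, SE 0.26, adjusted p by edgeR 0.0724). ANK2, 1 of the ankyrins that hold the L1 tail, was at 72.5, 107 and 113 CPM with and 48.5 to 55.2 without. CNTNAP1, which joins with contactin beside the node of Ranvier, was at 39.8 to 57.0 CPM with and 30.0 to 30.9 without. EGFR, a growth factor receptor that L1CAM can activate, was at 11.1, 4.62 and 4.01 CPM with and 12.9 to 14.2 without. Without replicate 1 with glutamine, edgeR called 11 genes of the list higher and 11 lower, in a fit that called 22.3% of all genes higher and 19% lower (41.3% in all). Then 23 of the 28 did not overlap, 82.1% against 63.5% of all genes, and the median was 0.0091.

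Among 24 partners of the growth-associated proteins, which include protein kinase C forms, calmodulins, PIP2-making kinases and the enzymes that attach myristate, 10 had an unadjusted p under 0.05 by edgeR (29.7% of all genes) and DESeq2 called 6 (14.4% of all genes). In the deprived cells 8 were higher and 1 was lower with no overlap, 37.5% of those tested against 34.2% of all genes, and the median log2 fold change was 0.07. PRKCB, the beta form of protein kinase C, was at 0.481, 0.166 and 0.331 CPM with glutamine and 1.03 to 1.20 without (log2 fold change 1.80, SE 0.31, adjusted p by edgeR 0.0679). PIP5K1B, which makes PIP2, was at 8.79, 3.12 and 3.33 CPM with and 11.2 to 14.3 without. NRGN and PCP4, calmodulin-binding proteins like GAP43, had log2 fold changes of 1.85 (SE 0.63) and 1.34 (SE 0.68) at low levels. In NRGN and PCP4 replicate 1 with glutamine, at 3.35 and 2.30 CPM, was above the 0.204 to 0.547 CPM of replicates 2 and 3. The myristate-attaching enzymes NMT1 and NMT2 had log2 fold changes of -0.12 (SE 0.07) and -0.04 (SE 0.07). Without replicate 1 with glutamine, 9 genes were called higher and 3 lower by edgeR, against 22.3% and 19% of all genes. The list then had 16 genes without overlap, or 66.7% against 63.5%, and a median of 0.10.

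The WT1 list held WT1 and 19 of its reported targets, of which 19 entries in all passed the filter. AREG, a growth factor gene repressed by WT1 together with BASP1, had at most 2 counts in a library and was the entry that did not pass. Of the 19 tested, 4 were higher and 2 lower without overlap, or 31.6% against 34.2% of all genes. By edgeR 8 had an unadjusted p under 0.05 (29.7% of all genes), and DESeq2 called 4 (14.4% of all genes). The list's median log2 fold change was 0.30. CDH1, E-cadherin, was at 20.9, 0.640 and 0.573 CPM with glutamine and 23.9 to 28.6 without, a log2 fold change of 1.86 (SE 1.13, adjusted p by edgeR 0.299). JUNB was at 5.35 to 5.88 CPM with and 7.74 to 8.99 without (log2 fold change 0.59, SE 0.11, adjusted p by edgeR 0.0682), with replicate 1 inside its own group. BCL2, a survival gene, was at 68.6 to 81.4 CPM with and 54.6 to 60.6 without. AMHR2, the receptor of anti-Müllerian hormone, had a log2 fold change of -0.90 (SE 0.27). When replicate 1 with glutamine was left out, edgeR called 11 genes higher and 6 lower, against 22.3% and 19% of all genes. Of the 19 genes 18 then did not overlap, 94.7% against 63.5% of all genes, and the median was 0.47.

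Other adhesion genes of the immunoglobulin superfamily were without overlap in 52.2% of 23 genes, against 34.2% of all genes, with 10 higher and 2 lower without glutamine. Their median log2 fold change was 0.35 against 0.0012 over all genes, 15 had an unadjusted p under 0.05 by edgeR (29.7% of all genes), and DESeq2 called 9 (14.4% of all genes). CNTN6, a contactin of developing neurons, was at 2.35, 0.653 and 0.764 CPM with glutamine and at 4.88, 10.2 and 9.73 CPM without (log2 fold change 2.71, SE 0.50, adjusted p by edgeR 0.0679). CNTN6 lies on chromosome 3 at 1092576 to 1404217, on the same end of the chromosome as CHL1. So does CNTN4, at 2098813 to 3057956, whose groups overlapped. CNTN4 was at 47.9, 21.0 and 22.0 CPM with glutamine and 44.7 to 78.1 without. Whether position has a part in these levels was not tested. NEGR1 and NTM, lipid-anchored adhesion molecules of neurons, had log2 fold changes of 1.41 (SE 0.30) and 1.19 (SE 0.27). CNTN5 went the other way, at 21.5, 49.6 and 52.0 CPM with glutamine and 13.3 to 21.0 without. When replicate 1 with glutamine was left out, edgeR called 12 genes higher and 5 lower, against 22.3% and 19% of all genes. Then 21 genes did not overlap, 91.3% against 63.5% of all genes, and the median was 0.49.

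**Figure D5:**
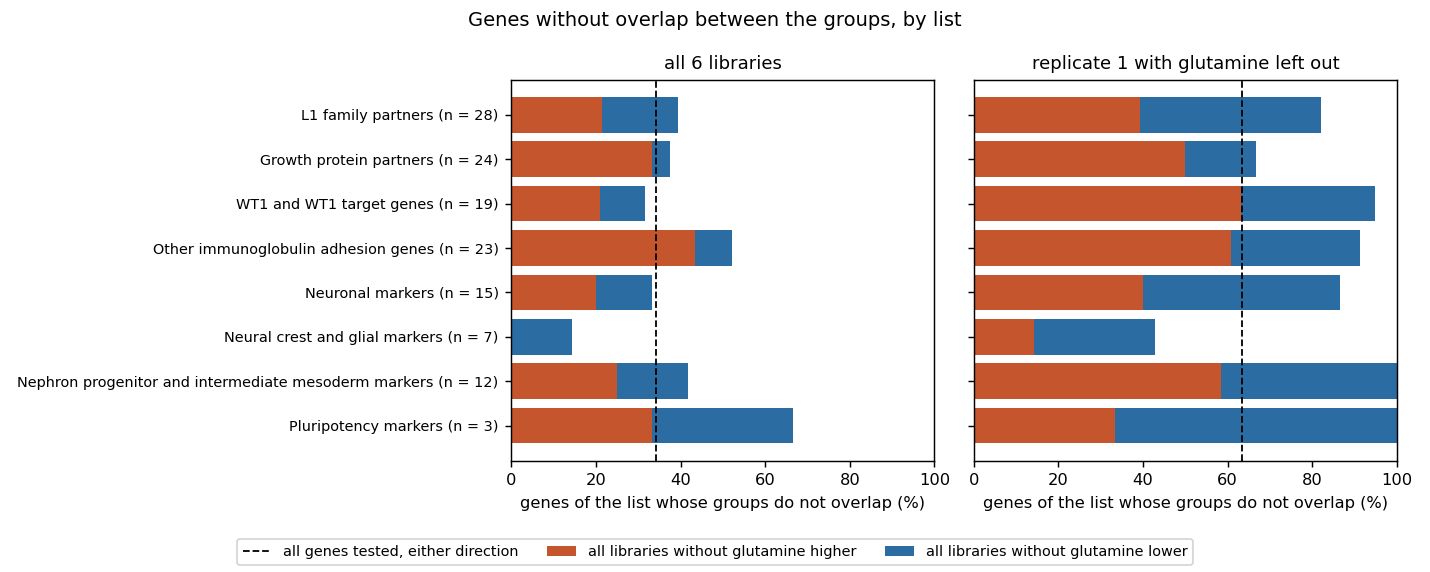
Bars give, for each gene list, the percentage of its tested genes for which all libraries without glutamine were above (orange) or below (blue) all with it, with n the genes tested, for all 6 libraries (left) and with replicate 1 with glutamine left out (right). The dashed lines mark the share over all genes in either direction, 34.2% and 63.5%, and the other immunoglobulin adhesion genes go from 52.2% to 91.3%.

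Because L1 family and growth-associated genes are also neuronal and glial, markers of those cells were followed. Of 17 neuronal markers 15 were tested by edgeR, with 3 higher and 2 lower without overlap (33.3% against 34.2% of all genes). Their median log2 fold change was -0.50. DESeq2, fitted without edgeR's filter, called 6 of the list, 3 higher and 3 lower (14.4% of all genes). With replicate 1 with glutamine left out, 13 were without overlap (86.7% against 63.5%), with a median of -0.48. Their summed level was 281, 779 and 810 CPM with glutamine and 289 to 344 without. NEFL and NEFM carried the high sums: without these 2 genes the sum was 163, 147 and 142 CPM with glutamine and 156 to 200 without. TUBB3, a tubulin of neurons, was at 0.904 to 1.49 CPM with and 2.03 to 2.49 without, while SNAP25, a synaptic protein, was at 12.2 to 19.1 CPM with and 10.2 to 10.4 without. Of 8 neural crest and glial markers 7 were tested, with 0 higher and 1 lower without overlap (14.3% against 34.2% of all genes) and a median log2 fold change of -0.65, and DESeq2 called 1 (14.4% of all genes). Leaving out replicate 1 with glutamine gave 3 without overlap (42.9% against 63.5%) and a median of -0.48. Their sum was 54.1 to 60.2 CPM with and 28.2 to 52.7 without. The gene without overlap was NGFR, a neurotrophin receptor, at 10.7 to 20.4 CPM with and 8.63 to 9.88 without. The neural crest and glial sum was thus lower in each library without glutamine. Its largest part was ERBB3, whose groups overlapped, at 33.6, 24.4 and 25.6 CPM with glutamine and 26.9, 13.6 and 12.9 without. TFAP2A, S100B and GFAP had positive log2 fold changes (0.92, 0.18 and 0.45), while FOXD3, TFAP2B, ERBB3 and NGFR had negative ones. Over all 6 libraries the neuronal sum overlapped between the groups with and without NEFL and NEFM. Leaving out replicate 1 with glutamine, the neuronal sum was lower in each library without glutamine, and higher in each once NEFL and NEFM were taken away, a step chosen after seeing the data. Their part in the members' levels was not tested.

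Among 12 nephron progenitor and intermediate mesoderm markers, 3 were higher and 2 lower without overlap (41.7% against 34.2% of all genes), the median log2 fold change was 0.34, and DESeq2 called 4 (14.4% of all genes). Leaving out replicate 1 with glutamine, all 12 were without overlap, where 63.5% of all genes were, and the median was 0.56. Their sum was 1665, 1054 and 984 CPM with glutamine and 1543 to 2067 without. GDNF, the signal from the metanephric mesenchyme to the ureteric bud, was at 20.9, 9.46 and 8.45 CPM with and 28.0 to 38.8 without. HOXD11, a posterior patterning gene of the kidney field, was at 0.542 CPM or less with glutamine and 3.22 to 6.05 without. EYA1, a progenitor factor, was lower without glutamine in each library, at 131 to 155 CPM against 164 to 222. LHX1, an early intermediate mesoderm factor, was at 71.8, 4.51 and 4.66 CPM with glutamine and 89.5 to 137 without. Of the 6 pluripotency markers 3 were tested, with 1 higher and 1 lower without overlap (66.7% against 34.2% of all genes). DESeq2 called 2 of the list (14.4% of all genes). LIN28A was at 156 to 322 CPM with glutamine and 125 to 152 without, and DPPA4 at 113 to 184 with and 212 to 269 without. SOX2 overlapped between groups unless replicate 1 with glutamine was left out, where 63.5% of all genes did not overlap. All 3 were then without overlap, 1 higher and 2 lower. The median log2 fold change was -0.58 there, and -0.35 with all libraries. These markers and the members CHL1 and BASP1 differed between the same libraries, and whether they come from the same cells was not tested.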

How the data were processed

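The authors deposited raw counts per Ensembl gene, 1 column per library. Per the labels, stranded mRNA libraries were read as single 50-nt ends, and each description gives the library's column heading. Those headings name days 0 and 9 although all samples are from day 9, and every direction rests on that match. The submitters' processing notes name cutadapt, Trim Galore, FastQC, STAR 2.5.2b, DESeq2 and GRCh38. The counting program and annotation release are not given in the sources used here. Of 60107 IDs 56531 matched GENCODE 29, used for symbols, positions and lengths.

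The test used edgeR 4.0.16 under R 4.3.3 on the counts (quasi-likelihood F test, legacy = FALSE, TMM, filterByExpr, no covariate, Benjamini-Hochberg, threshold 0.05). The genes kept held 99.95% of counts. SE is the absolute log2 fold change divided by the square root of F. DESeq2 1.42.0 and limma-voom (limma 3.58.1) were alternatives, with other scalings, no filter, a replicate block and each library left out. DESeq2 was fitted to all genes with a count, so the number of list genes tested by edgeR is not the base of its calls. Log2 CPM used a prior count of 2. Counts over 22613 genes were also simulated, with 200 genes with at least 10 CPM changed. On them the fit of all 6 libraries recovered 88.9% of changes of 1 and 100% of changes of 2 on the log2 scale, with 12 false calls. On the deposited counts that fit called 1 gene, and 9573 were called with replicate 1 with glutamine left out. Whether the simulated counts held a library set apart like that one is not stated. The simulated rates therefore cannot be carried over to these libraries, and a gene not called is not shown to be unchanged.

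The members and lists were chosen with earlier results of these data known. Some lists share genes, so their counts and medians are not separate observations. WT1, SIX2, SALL1 and PAX2 are in both the WT1 and the nephron list. NCAM1 is in the L1 partner and immunoglobulin lists. DCX and STMN2 are each in the neuronal list and a partner list. From each list, genes called were to be named, and otherwise up to 4 with the largest absolute log2 fold change, no overlap and at least 1 CPM in the higher group. Other list genes were named after their values were seen. Of the neural crest and glial list, 2 genes are not reported here and were left out of its values.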

Additional observations from a re-analysis of the deposited data

How the results depend on the processing

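The count of genes called was 1 with all libraries. It was 0 under upper quartile scaling, edgeR's legacy setting, limma-voom and the replicate block, 2 with no filter and 3065 with DESeq2 (14.4% of the 21306 genes given an adjusted p). With 1 library left out it ran from 0 to 9573, the highest without replicate 1 with glutamine. The cause was not tested. Same-numbered libraries did not deviate together (r of -0.02, 8.8e-05 and 0.03). With so few pairs, and replicate 1 with glutamine apart from its group, this cannot show whether same-numbered libraries shared a culture. With the replicate block no member was called. Over 104 alternative values of the members' fold changes 89 kept direction and call, 4 became called (NRCAM and MARCKSL1, under DESeq2 and without replicate 1 with glutamine) and 10 reversed, while BASP1 moved by more than its replicate SD under upper quartile scaling, to 0.58. Over the alternatives CHL1 stayed at 0.90 to 0.98 and BASP1 at 0.58 to 0.66. L1CAM was 0.0065 with no filter, 0.0040 with DESeq2, 0.0033 with limma-voom, 0.0031 with the replicate block, and ran from -0.068 to 0.036 over the fits without 1 library. With 1 library left out NFASC ran from -0.12 to 0.0066 and GAP43 from -0.43 to 0.091. The median of the L1 partner list ran from -0.16 to 0.0091, the latter without replicate 1 with glutamine, and the pluripotency median, -0.35 over 3 genes, was 0.57 over 6 with no filter and 0.57 with DESeq2. Other list medians kept their sign. Leaving out replicate 1 with glutamine for the counts without overlap was chosen after seeing the data. It raised them by over 1.5 times in 7 of 8 lists. Of 16 mean levels per kilobase, 9 moved by more than their replicate SD when the longest transcript replaced the merged exons. NFASC and GAP43, with 138 to 302 counts in a library, are the members that depth limits most.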
